A study of Homo sapiens with 9 samples.

Results

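The 9 genes described here encode the machinery by which a cell receives Hedgehog ligand. They are the co-receptor genes GAS1, BOC and CDON, the receptor gene PTCH1, the signal transducer gene SMO, the transcription factor genes GLI1, GLI2 and GLI3, and HHIP, which encodes a ligand-binding inhibitor. They were taken by symbol from the 25593 loci of each deposited table, and all 9 were found. The choice was made with their FPKM in the 3 groups in view, so their levels and the differences between groups are given as a description. Where members past the threshold of the fit across all genes are counted, the count stands beside that of all genes and supports nothing. Of 54 other genes of the pathway, 43 could be tested.

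The libraries came from 9 cultures of neural crest-like cells, 3 in each group, which were grown out of H9, an established line of human embryonic stem cells. All of them shared 6 days of differentiation with 10 µM SB431542 in chemically defined medium. SB431542 inhibits receptors of the TGF-β, Activin and Nodal ligands. All also shared a sort on the surface proteins CD271 and CD73, and expansion on fibronectin under 5% oxygen. Cells of group F_FSB were expanded for 4 passages with FGF2 and SB431542 and then for 3 passages with FGF2 alone. Cells of group FSB were expanded with 5 to 10 ng/ml FGF2 and 3 to 5 µM SB431542 until harvest, and cells of group F with FGF2 alone. All were harvested at passage 6 to 7. H9 is a single line, so the cultures do not sample donors. The sort is described as CD271-high and CD73-negative in the growth protocol, while the cell type label gives CD73 as positive. No Hedgehog ligand, agonist or inhibitor is named among the components of the media.

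Hedgehog proteins are secreted ligands that pattern the embryo. GAS1, BOC and CDON hold the ligand at the cell surface and help it to bind PTCH1. Without ligand, PTCH1 keeps SMO inactive and GLI3 is cut to a repressor. With ligand, SMO gathers in the primary cilium, GLI2 becomes an activator, and PTCH1, GLI1 and HHIP are transcribed, so that their RNA is widely used as a readout of the pathway. In mouse embryos, crest-derived cells of the face receive Hedgehog from neighbouring epithelia, and loss of the co-receptors disturbs the facial midline.

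Depth, estimated from the width of the intervals in the deposited tables, ranged from 83.6% to 100% of the deepest library, except for F_FSB replicate 2 at 63.0%. The FPKM of that library summed to 506146, against 361026 to 395596 in the others. Fragment counts are not in the tables. F replicate 1 stood apart from the other F libraries on the second principal component of log2(FPKM + 1), where it scored 4.26 and they scored -27.7 and -31.4. The F_FSB libraries spanned -9.12 to 48.6 there, with replicate 2 the highest, and the FSB libraries -1.64 to 1.06. The results for BOC and CDON rest on these F libraries and are given with and without replicate 1. Of 7 crest markers, 6 reached 1 FPKM in some library, but FOXD3 stayed under 1 FPKM in all of them and SOX10 reached it only in FSB replicate 3. All 7 ectomesenchyme markers reached 1 FPKM in some library, but not all of them in every group. ALX4 was at most 0.384 FPKM in F, and DLX5 was at most 0.325 FPKM in FSB. MSX1 ranged from 0.129 to 13.4 FPKM in F_FSB and from 0.188 to 12.2 FPKM in F. None of the 6 markers of central neuroectoderm reached 1 FPKM, and their summed level was at most 0.765 FPKM.

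Among the co-receptors, GAS1 separated F from both groups that had been expanded with the inhibitor. GAS1 (chromosome 9, 89559277 to 89562104, GRCh37, minus strand), a lipid-anchored surface protein, was at 16.8, 17.6 and 16.7 FPKM in F_FSB, at 14.3, 12.6 and 14.7 FPKM in FSB and at 47.2, 73.1 and 68.6 FPKM in F. No F library overlapped either other group, and the F_FSB libraries also lay above the FSB libraries, by a smaller step. On the log2(FPKM + 1) scale, FSB was lower than F by a log2 difference of -2.08 (SE 0.15) and F_FSB was lower than F by one of -1.80 (SE 0.15), while F_FSB exceeded FSB by 0.28 (SE 0.15). The lowest F library, replicate 1, was still 2.68 times the highest library of the other groups. Group means were 17.0 ± 0.525 FPKM in F_FSB, 13.9 ± 1.09 FPKM in FSB and 63.0 ± 13.9 FPKM in F (SD, n = 3 each). In all 3 F libraries the deposited GAS1 value lay slightly above the upper end of its own interval, which was 47.1 FPKM for replicate 1. These are bulk cultures, in which fewer cells of a type and less RNA per cell cannot be told apart.

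The GAS1 promoter is shown because GAS1 separated F_FSB from F, cells that ended in the same medium. The sequence is from RefSeq on build GRCh38.p14, chr9:86947457-86947756, minus strand, and runs 5′ to 3′ from 250 bases before to 50 bases after the start of the transcript. It is wholly in lower case, as it holds no match to the GLI motif searched for below.
GAS1 promoter: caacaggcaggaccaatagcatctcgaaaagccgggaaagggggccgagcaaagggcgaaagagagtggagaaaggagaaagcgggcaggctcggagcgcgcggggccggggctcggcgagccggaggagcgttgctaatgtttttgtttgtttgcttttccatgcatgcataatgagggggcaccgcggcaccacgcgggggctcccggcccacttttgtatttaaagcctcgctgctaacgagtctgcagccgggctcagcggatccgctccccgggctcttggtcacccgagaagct

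BOC and CDON, related transmembrane proteins with immunoglobulin and fibronectin repeats, were high in F replicates 2 and 3 but not in F replicate 1. BOC (chromosome 3, 112931375 to 113006306) was at 10.8, 14.8 and 8.02 FPKM in F_FSB, at 12.4, 9.87 and 10.3 FPKM in FSB and at 17.5, 85.5 and 94.3 FPKM in F. All F libraries lay above all others, yet replicate 1 was much closer to the other groups than to its own replicates. CDON (chromosome 11, 125826713 to 125933187) was at 2.12, 3.59 and 2.96 FPKM in F_FSB, at 6.49, 5.45 and 8.89 FPKM in FSB and at 2.69, 20.8 and 14.4 FPKM in F. For CDON, F replicate 1 lay inside the F_FSB range, so F overlapped F_FSB and straddled FSB, while the F_FSB libraries all lay below the FSB libraries.

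The sizes of these differences depended on F replicate 1. BOC averaged 11.2 ± 3.42 FPKM in F_FSB, 10.85 ± 1.345 FPKM in FSB and 65.8 ± 42.0 FPKM in F (SD, n = 3 each). CDON averaged 2.89 ± 0.739 FPKM in F_FSB, 6.945 ± 1.765 FPKM in FSB and 12.6 ± 9.19 FPKM in F (SD, n = 3 each). For BOC the log2 difference was -2.18 (SE 0.57) for FSB minus F and -2.17 (SE 0.57) for F_FSB minus F, and -2.94 and -2.93 without F replicate 1. For CDON it was -0.46 (SE 0.58) for FSB minus F, and -1.23 without F replicate 1 but 0.05 without F replicate 2. CDON in F_FSB minus F was at -1.48 (SE 0.58), and -2.25 without F replicate 1. CDON in F_FSB minus FSB was at -1.02 (SE 0.58), and BOC in that comparison was at 0.01 (SE 0.57). No F library enters these differences, but their SEs come from the fit of all groups and include the spread of the F libraries. With only F_FSB and FSB in the fit, the SE was 0.21 for CDON and 0.21 for BOC.

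Summed over the 3 co-receptors, RNA was at 29.7, 36.1 and 27.7 FPKM in F_FSB, at 33.2, 27.9 and 33.9 FPKM in FSB and at 67.4, 179.5 and 177.4 FPKM in F. The makeup of the sum differed too. GAS1 gave 48.9% to 60.3% of it in F_FSB and 43.1% to 45.2% in FSB, against 70.0% in F replicate 1 and 40.7% and 38.7% in F replicates 2 and 3. CDON gave 7.14% to 10.7% in F_FSB, 19.5% to 26.3% in FSB and 3.99% to 11.6% in F. In the F libraries rich in BOC and CDON, a marker of paraxial mesoderm was also high. The summed level of 4 such markers was 0.759 to 7.72 FPKM in F_FSB, 4.78 to 6.50 FPKM in FSB and 3.11 to 43.8 FPKM in F, and only MEOX1 reached 1 FPKM, at 2.78, 11.3 and 43.2 FPKM in F replicates 1, 2 and 3. Its part in the result was not tested. Skeletal muscle, where BOC and CDON are known to act, had its defining markers MYF5 and MYOG at 0 in all libraries, and its 4 markers summed to at most 1.48 FPKM in F_FSB, 1.73 FPKM in FSB and 8.05 FPKM in F, most of it DES.

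**Figure D1:**
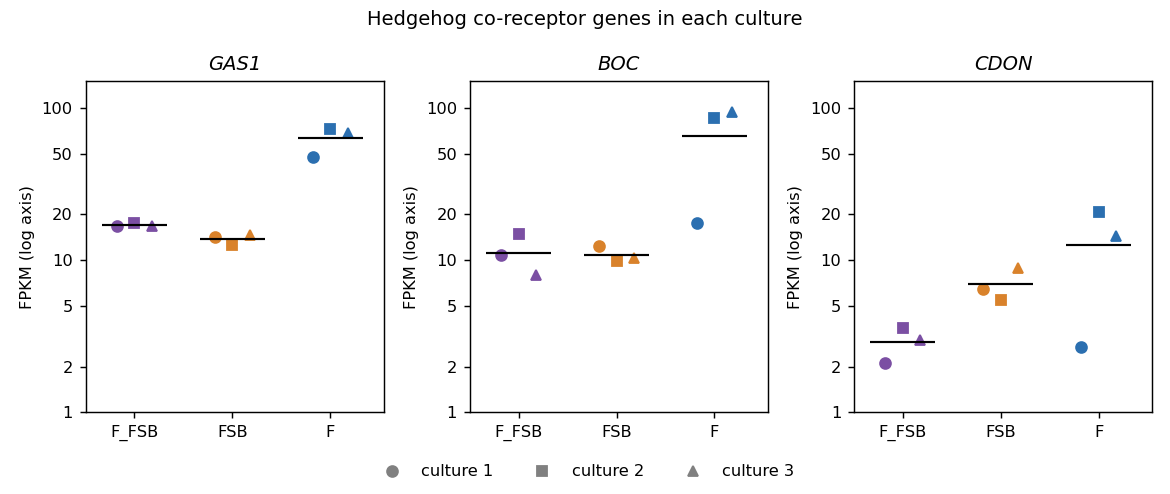
FPKM of GAS1, BOC and CDON (log axis) in each of 3 cultures of F_FSB, FSB and F; points are libraries, shapes are culture numbers and lines are arithmetic group means. GAS1 is at 47.2 FPKM or more in every F library and at 17.6 FPKM or less elsewhere, whereas F replicate 1 is far below its replicates for BOC and CDON.

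The genes most like each co-receptor across the 9 libraries were ranked by Pearson's r of log2(FPKM + 1), as a description, since the points share libraries and the differences between groups. For GAS1 they were HIC1, a transcriptional repressor (r = 0.954), the homeobox gene HOXA3 (r = 0.932) and the zinc finger gene ZBED6 (r = 0.931). HIC1 was at 0.545, 1.88 and 1.13 FPKM in F_FSB, at 0.149, 0.202 and 0.016 FPKM in FSB and at 3.47, 18.7 and 9.91 FPKM in F. For BOC they were the T-box gene TBX15 (r = 0.992), SEMA7A (r = 0.966) and its receptor gene PLXNC1 (r = 0.955). TBX15 was at 3.19, 3.04 and 2.30 FPKM in F_FSB, at 2.66, 2.65 and 2.58 FPKM in FSB and at 3.84, 9.67 and 10.0 FPKM in F, so its F replicate 1 was low as well. For CDON they were TCF7L2, a WNT pathway transcription factor (r = 0.989), the mitochondrial chaperone gene CLPX (r = 0.950) and the fatty acid transporter gene SLC27A1 (r = 0.944). TCF7L2 was at 14.2, 16.5 and 14.1 FPKM in F_FSB, at 21.8, 19.9 and 23.6 FPKM in FSB and at 14.5, 41.4 and 29.4 FPKM in F.

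PTCH1, the ligand receptor and itself a transcriptional target of GLI proteins, was higher in FSB, harvested with the inhibitor present, than in either other group. PTCH1 (chromosome 9, 98205264 to 98279247) was at 1.64, 0.926 and 1.24 FPKM in F_FSB, at 6.66, 6.20 and 5.27 FPKM in FSB and at 1.66, 1.60 and 2.09 FPKM in F. The FSB libraries lay above all others, and F_FSB and F overlapped. Group means were 1.27 ± 0.356 FPKM in F_FSB, 6.04 ± 0.709 FPKM in FSB and 1.78 ± 0.264 FPKM in F (SD, n = 3 each). The log2 difference was 1.34 (SE 0.14) between FSB and F. It was -1.64 (SE 0.14) between F_FSB and FSB, and -0.30 (SE 0.14) between F_FSB and F. As a ratio of mean FPKM, FSB was 3.39 times F. With a pseudocount of 0.1 the log2 differences were 1.71, -2.20 and -0.49, as the smaller pseudocount compresses low values less. PTCH1 per SMO, in FPKM, was 0.0558 to 0.0773 in F_FSB, 0.244 to 0.327 in FSB and 0.0605 to 0.0835 in F. The summed level of the 7 crest markers was 56.8 to 86.4 FPKM in F_FSB, 262 to 299 FPKM in FSB and 67.1 to 103.0 FPKM in F. Of the 5 tested, NGFR, TFAP2A and ETS1 rose in FSB relative to F (limma, adjusted p = 0.0306, 0.00261 and 0.000690), while SOX9 and TFAP2B did not pass, and TFAP2B had its highest mean in F_FSB, 13.97 FPKM against 8.56 FPKM in FSB. FOXD3 was at 0 in every F_FSB and F library and only at 0.00787 to 0.0250 FPKM in FSB. The summed level of 5 pluripotency markers was 1.52 to 5.64 FPKM in F_FSB, 11.9 to 18.8 FPKM in FSB and 3.09 to 9.35 FPKM in F. It consisted mainly of DPPA4 and L1TD1, while NANOG and TDGF1 stayed under 1 FPKM in all libraries. The summed level of 5 endothelial markers was 1.47 to 5.31 FPKM in F_FSB, 5.42 to 6.08 FPKM in FSB and 2.71 to 5.92 FPKM in F. Among them CDH5 averaged 0.208 FPKM in F_FSB, 3.43 FPKM in FSB and 0.143 FPKM in F. TIE1 averaged 0.162 FPKM in F_FSB, 1.62 FPKM in FSB and 0.226 FPKM in F. TEK and PECAM1 went the other way, with their lowest means in FSB. PECAM1 averaged 0.694 FPKM in F_FSB, 0.233 FPKM in FSB and 0.649 FPKM in F, and its F_FSB and FSB libraries overlapped. KDR stayed under 1 FPKM in all libraries. The part of these markers in the PTCH1 result was not tested.

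RefSeq promoters on build GRCh38.p14 were found for 7 of the 9 genes, all but GLI1 and GLI3, with 15 windows in all. They were searched on both strands for GACCACCCA, the motif bound by GLI proteins, whose other strand reads TGGGTGGTC. An exact match was found in 1 window, for PTCH1, and in 83 of all 35116 promoter windows (0.236%). PTCH1 had 5 of the 15 windows, more than any other member. With 1 mismatch allowed there were matches in 3 windows, all of PTCH1, against 6.74% of all windows. A pair of those windows overlaps and holds the same site, so the 3 windows hold 2 places. A match describes these letters and does not show binding.

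The PTCH1 windows are shown because the PTCH1 libraries of FSB lay above those of both other groups, and capitals mark the match. The exact match starts 172 bases before the start site, at chr9:95509430-95509438, in the window chr9:95509217-95509516 on the minus strand. The match with 1 mismatch starts 212 bases before another start site, at chr9:95507403-95507411, in the window chr9:95507150-95507449 on the minus strand. Both run 5′ to 3′.
PTCH1 exact match: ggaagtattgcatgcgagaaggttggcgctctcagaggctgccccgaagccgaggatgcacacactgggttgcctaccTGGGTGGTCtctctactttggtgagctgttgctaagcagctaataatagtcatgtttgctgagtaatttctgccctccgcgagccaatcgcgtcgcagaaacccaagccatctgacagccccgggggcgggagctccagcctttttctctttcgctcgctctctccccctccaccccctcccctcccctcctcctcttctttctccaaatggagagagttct
PTCH1 match with 1 mismatch: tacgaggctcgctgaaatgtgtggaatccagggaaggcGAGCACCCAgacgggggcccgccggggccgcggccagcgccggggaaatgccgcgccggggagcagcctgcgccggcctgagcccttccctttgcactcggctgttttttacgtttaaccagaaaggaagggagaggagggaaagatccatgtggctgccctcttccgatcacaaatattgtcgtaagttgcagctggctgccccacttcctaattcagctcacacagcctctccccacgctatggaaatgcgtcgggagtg

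SMO, GLI2 and GLI3 were expressed in every culture and varied little. SMO (chromosome 7, 128828713 to 128853386), the transducer that PTCH1 inhibits, was at 21.2, 16.6 and 18.2 FPKM in F_FSB, at 20.7, 19.0 and 21.6 FPKM in FSB and at 21.1, 26.5 and 25.0 FPKM in F. The groups overlapped in every comparison. GLI2 (chromosome 2, 121554867 to 121750229), the main activator, was at 13.2, 9.16 and 11.3 FPKM in F_FSB, at 14.3, 12.8 and 10.6 FPKM in FSB and at 12.04, 11.6 and 8.61 FPKM in F, also with all groups overlapping. GLI3 (chromosome 7, 42000547 to 42276618), the main source of repressor, was at 13.5, 13.9 and 15.2 FPKM in F_FSB, at 16.7, 13.6 and 20.3 FPKM in FSB and at 15.6, 24.0 and 17.5 FPKM in F. Its F_FSB libraries all lay just below its F libraries, the nearest being at 15.2 FPKM in F_FSB and 15.6 FPKM in F. Across the 9 libraries the highest value was 1.59 times the lowest for SMO, 1.66 times for GLI2 and 1.78 times for GLI3, against 5.79 times for GAS1, 7.19 times for PTCH1, 9.83 times for CDON and 11.8 times for BOC. The log2 differences of SMO, GLI2 and GLI3 in the 3 comparisons lay between -0.38 and 0.21, with SEs of 0.12 to 0.18. The median of all genes tested was itself at 0.14 for FSB minus F and at -0.13 for F_FSB minus FSB, which is of the same order. SMO in F_FSB minus FSB changed from -0.13 to 0.01 when libraries were scaled by median ratios. In FSB minus F, SMO was at -0.23, opposite in sign to that median. There it was at -0.37 with median ratios and -0.38 with quantile normalization. It was past the threshold in both, as were 4868 and 4952 genes in all. More GLI3 than GLI2 RNA was present per length in every library, with ratios of 1.02 to 1.52 in F_FSB, 1.06 to 1.91 in FSB and 1.29 to 2.06 in F.

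**Figure D2:**
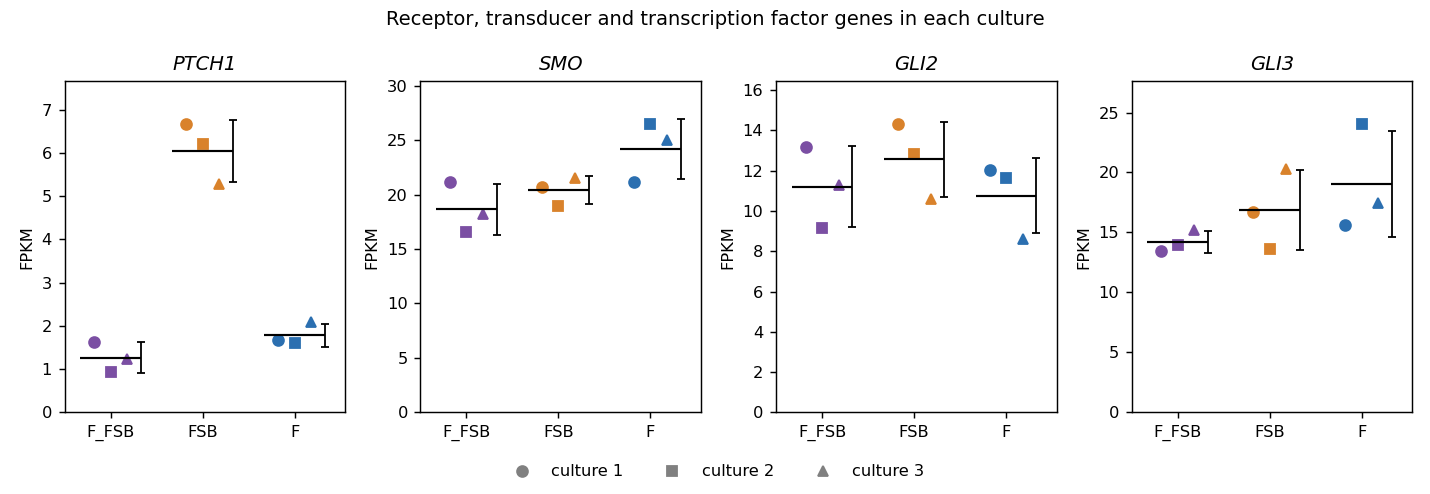
FPKM (linear axis from 0) of PTCH1, SMO, GLI2 and GLI3 in each culture; points are libraries, shapes are culture numbers, horizontal lines are group means and bars beside them are 1 SD (n = 3). PTCH1 is at 5.27 FPKM or more in FSB and at 2.09 FPKM or less elsewhere, while the groups overlap for SMO and GLI2.

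The remaining target genes of the pathway were barely detected. GLI1 (chromosome 12, 57853918 to 57866051), which GLI proteins induce and which amplifies the response, was at 0.665, 0.257 and 0.0285 FPKM in F_FSB, at 0.335, 0.546 and 0.413 FPKM in FSB and at 0.119, 0.160 and 0.121 FPKM in F. The FSB libraries lay above the F libraries, and F_FSB spanned both. The intervals in the tables were wide at this level, 0.213 to 0.467 FPKM for the lowest FSB library and 0.0677 to 0.261 FPKM for the highest F library, and these overlapped. HHIP (chromosome 4, 145567148 to 145659881), which binds and sequesters the ligand, was at 0.217, 0.401 and 0.0136 FPKM in F_FSB, at 0.0525, 0.0137 and 0.0279 FPKM in FSB and at 0.486, 0.0286 and 0.0548 FPKM in F. Its interval reached 0 in 6 of the 9 libraries, so the groups cannot be ordered at this depth. Genes on the opposite strand overlap 8 of the members in GENCODE, all but GAS1, and for the use of strand in quantification no statement was found in the labels. This matters most for HHIP, whose start overlaps HHIP-AS1, so its values are uncertain; the neighbouring locus LOC646576 reached 1.70 FPKM. Neither GLI1 nor HHIP reached 1 FPKM in any library, so both stayed out of the fit across genes.

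**Figure D3:**
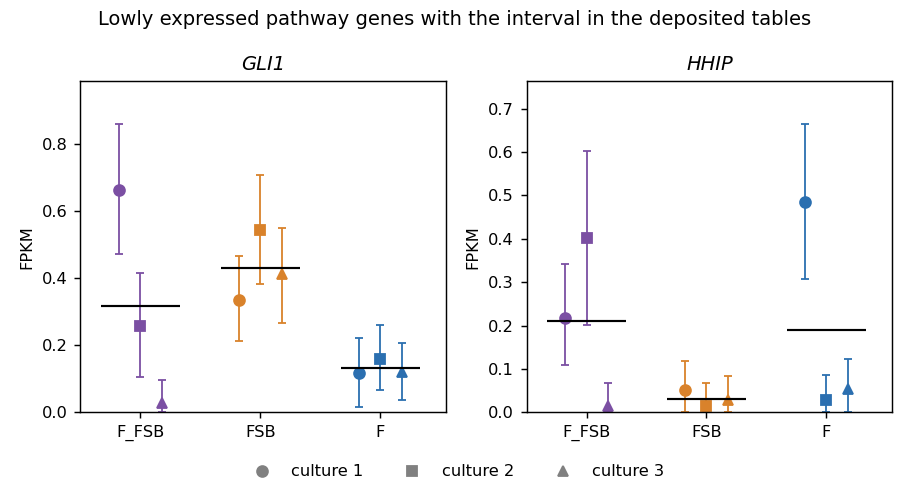
FPKM (linear axis from 0) of GLI1 and HHIP in each culture, with the interval given in the deposited tables as vertical bars; horizontal lines are group means. All values are under 1 FPKM, and the interval of HHIP reaches 0 in 6 of 9 libraries.

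The order of the members differed between groups. In F_FSB the order of mean FPKM was SMO, GAS1, GLI3, BOC, GLI2, CDON, PTCH1, GLI1 and HHIP. In FSB it was SMO, GLI3, GAS1, GLI2, BOC, CDON, PTCH1, GLI1 and HHIP. In F it was BOC, GAS1, SMO, GLI3, CDON, GLI2, PTCH1, HHIP and GLI1. Neighbours whose libraries did not overlap in F_FSB were GAS1 above GLI3, GLI2 above CDON, CDON above PTCH1 and PTCH1 above GLI1. In FSB they were BOC above CDON, PTCH1 above GLI1 and GLI1 above HHIP. In F they were GAS1 above SMO, GLI2 above PTCH1 and PTCH1 above HHIP. All other neighbours overlapped.

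Of the 9 members, 7 passed the filter on low values. In the limma fit with Benjamini-Hochberg adjustment over all genes, 3 members were past the threshold of 0.05 between FSB and F, as were 41.9% of all 13216 genes tested. PTCH1 was higher in FSB, as were 28.5% of all genes, and GAS1 and BOC were lower, as were 13.4%. Between F_FSB and FSB, 1 member was past it, PTCH1, which was lower, and so were 41.8% of all genes, with 13.7% higher and 28.2% lower. Between F_FSB and F, GAS1 was the 1 gene of 13216 past it (0.00757%), and it was lower. The FSB and F libraries did not overlap for 3 of the 7 members, against 57.9% of all genes, namely for PTCH1, which was higher (38.7% of all genes), and for GAS1 and BOC, which were lower (19.2%). F_FSB and FSB did not overlap for 3, against 55.8%, namely for GAS1, which was higher (19.2%), and for CDON and PTCH1, which were lower (36.6%). F_FSB and F did not overlap for 3, against 13% of all genes, and GAS1, BOC and GLI3 were all lower (6.76% of all genes, with 6.28% higher). The members were chosen on these values, so nothing is read from their counts. The GAS1 call for F_FSB minus F rested on the whole set. It was absent with no filter on low values, with only F_FSB and F in the fit, with culture number as a block, and without F_FSB replicate 1, 2 or 3, FSB replicate 1, 2 or 3 or F replicate 3, while the log2 difference stayed between -1.99 and -1.68 with each library left out. The BOC call for FSB minus F was absent without FSB replicate 2 or F replicate 2 or 3. Other calls appeared. CDON and GAS1 passed for F_FSB minus FSB with only these groups in the fit (5191 genes in all) or without F replicate 1 (5424). Leaving out F replicate 1 also added CDON for FSB minus F (4825 genes in all) and BOC and CDON for F_FSB minus F (74). SMO passed for FSB minus F with median ratio or quantile scaling.

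**Figure D4:**
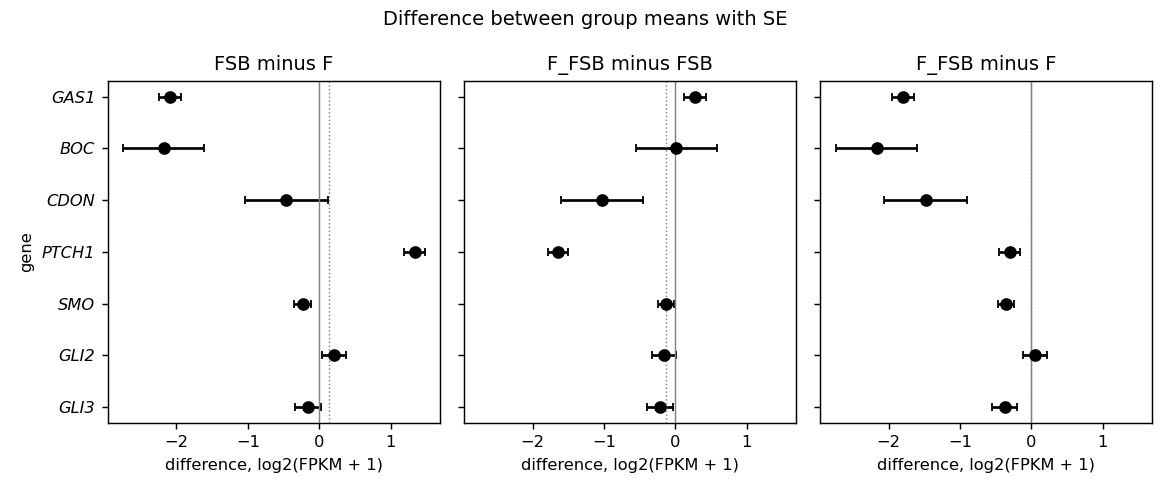
Differences between group means on the log2(FPKM + 1) scale for the 7 members that passed the filter, in each comparison; points are limma estimates, bars are 1 SE, the solid line is 0 and the dotted line is the median of all genes tested. GAS1 and BOC lie near -2 in both comparisons with F, and PTCH1 lies at 1.34 for FSB minus F and -1.64 for F_FSB minus FSB.

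The other genes of the pathway were tested in the same fit. Of 54 such genes, 43 passed the filter. Between FSB and F, 8 rose, 6 fell and 29 did not pass the threshold, with a median log2 change of 0.06 against 0.14 for all genes tested. Of all 13216 genes tested, 28.5% rose and 13.4% fell there. Between F_FSB and FSB, 4 rose, 10 fell and 29 did not pass, with a median of -0.11 against -0.13 for all genes. Of all genes, 13.7% rose and 28.2% fell there. These shares are also the background for the counts of each list below. The split by direction moved with scaling. With libraries scaled by median ratios there were 6 higher and 9 lower for FSB minus F and 7 and 6 for F_FSB minus FSB, and quantile normalization gave 6 and 8 and 7 and 6. Between F_FSB and F, none of the 43 passed (limma, adjusted p), and 5 had an unadjusted p under 0.05, 2 higher and 3 lower. These comparisons share the FSB, F or F_FSB libraries with each other and are not independent.

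Ligand genes were close to 0. SHH was listed at 0 in 8 libraries and IHH in 6, DHH in 7, and none of them reached 1 FPKM. Of the 5 tested genes of ligand processing and release, 1 rose and 3 fell in FSB relative to F, and 1 rose and 1 fell in F_FSB relative to FSB. SCUBE1, a secreted protein of the family that helps release the ligand from cells, was at 4.05, 2.67 and 6.38 FPKM in F_FSB, at 15.9, 12.9 and 11.7 FPKM in FSB and at 1.63, 0.940 and 0.614 FPKM in F. None of the 3 groups overlapped. In FSB it rose relative to F by 2.83 on the log2 scale (SE 0.27, limma, adjusted p = 0.000283), and it fell in F_FSB relative to FSB (log2 change -1.48, adjusted p = 0.00372), and it did not pass between F_FSB and F (adjusted p = 0.350, log2 difference 1.35).

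SCUBE3, of the same family, had the reverse pattern. It was at 32.0, 43.6 and 47.7 FPKM in F_FSB, at 7.27, 6.08 and 7.35 FPKM in FSB and at 29.9, 90.5 and 32.5 FPKM in F. It fell in FSB relative to F (log2 change -2.53, SE 0.38, limma, adjusted p = 0.00167) and rose in F_FSB relative to FSB (log2 change 2.40, adjusted p = 0.00201). SCUBE2 averaged 0.574 ± 0.0896 FPKM in FSB and 2.41 ± 1.39 FPKM in F (SD, n = 3 each) and fell (log2 change -1.04, limma, adjusted p = 0.0305). That call was absent without FSB replicate 1, 2 or 3 or F replicate 2 or 3, and with no filter on low values. HHAT, the acyltransferase that attaches palmitate to the ligand, averaged 4.33 ± 0.938 FPKM in FSB and 6.26 ± 0.565 FPKM in F and fell (log2 change -0.46, limma, adjusted p = 0.0304). The HHAT call was absent without FSB replicate 1 or 2 or F replicate 1 or 2. It was also absent with no filter on low values and with culture number as a block. For F_FSB minus FSB neither SCUBE2 nor HHAT passed (limma, adjusted p = 0.0637 and 0.0606). There HHAT passed as higher without FSB replicate 3 and with median ratio (0.50) or quantile (0.48) scaling. SCUBE2 passed as higher without F replicate 1 or 3 and with a pseudocount of 0.1. It also passed with only F_FSB and FSB in the fit and with culture number as a block. DISP1, a transporter that releases the ligand, was at 2.62 ± 0.571 FPKM in F_FSB, 3.98 ± 1.33 FPKM in FSB and 3.88 ± 2.01 FPKM in F and passed in no comparison.

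Of the other genes of ligand reception, 3 were tested and none passed (limma, adjusted p), while an unadjusted p under 0.05 was reached by 2 of them between FSB and F, by 1 between F_FSB and FSB and by 0 between F_FSB and F. GPC3, a glypican that in mouse binds Hedgehog and limits its action, was at 8.25, 7.77 and 226 FPKM in F_FSB, at 117, 114 and 167 FPKM in FSB and at 12.9, 10.6 and 44.2 FPKM in F. F_FSB replicate 3 was thus above every FSB library, and the other F_FSB libraries were below every F library. The log2 difference was 2.76 for FSB minus F (limma, adjusted p = 0.0923) and -2.32 for F_FSB minus FSB (adjusted p = 0.149). Without F_FSB replicate 3 both passed, with log2 differences of 2.76 and -3.87. No F_FSB library enters FSB minus F, so there only the estimate of the spread changed. GPC3 in FSB minus F also passed with only FSB and F in the fit and with culture number as a block. LRP2, an endocytic receptor for the ligand, stayed under 1 FPKM throughout. MGRN1, a ubiquitin ligase that lowers SMO at the cell surface, ranged from 20.9 to 26.9 FPKM over all libraries.

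Genes that carry the signal from SMO to the GLI proteins showed small changes. Of 16, all tested, 4 rose and 2 fell in FSB relative to F. EVC, a ciliary protein that relays the SMO signal, averaged 8.62 ± 1.02 FPKM in FSB and 13.9 ± 0.497 FPKM in F and fell (log2 change -0.64, SE 0.09, limma, adjusted p = 0.00132). Its partner EVC2, named after its values were seen, was the other that fell. CSNK1A1, a kinase that phosphorylates GLI proteins, averaged 61.7 ± 2.56 FPKM in FSB and 42.6 ± 0.837 FPKM in F and rose by 0.52 (limma, adjusted p = 0.00235). ARRB2, an arrestin that binds SMO, averaged 5.48 ± 0.450 FPKM in FSB and 3.43 ± 0.137 FPKM in F and rose by 0.55 (limma, adjusted p = 0.00627). CUL3, a ubiquitin ligase scaffold that acts on GLI proteins, averaged 16.9 ± 0.583 FPKM in FSB and 13.3 ± 0.687 FPKM in F and rose by 0.33 (limma, adjusted p = 0.00640). The fourth that rose was the kinase gene GSK3B, named after its values were seen. When the libraries were scaled by median ratios or quantiles, the split turned to 2 higher and 4 lower. The calls of CUL3 and GSK3B were then absent, and KIF7 and STK36, kinesin and kinase of the GLI-regulating complex that are named after their values were seen, passed as lower, by log2 changes of -0.36 and -0.31 with median ratios and of -0.34 and -0.28 with quantiles. Between F_FSB and FSB, 1 of the 16 rose and 5 fell. EVC rose by 0.49 in F_FSB (limma, adjusted p = 0.00381), and ARRB2, CSNK1A1 and CUL3 fell by 0.56, 0.41 and 0.30 (adjusted p = 0.00517, 0.00617 and 0.00911). With GSK3B and BTRC, both named after their values were seen, these make up the 5 that fell. With either of the other scalings, 2 were higher and 2 lower, as CUL3, GSK3B and BTRC no longer passed and EVC2 passed as higher, at 0.33 with median ratios and 0.29 with quantiles. The GSK3B call was absent without F_FSB replicate 2 or 3 or any 1 FSB library, and the BTRC call without any 1 F_FSB or FSB library or F replicate 3.

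The 11 genes of cilium assembly and transport were all tested, and 1 fell between FSB and F and 1 between F_FSB and FSB. IFT80, an intraflagellar transport protein, averaged 9.92 ± 0.625 FPKM in FSB and 12.5 ± 0.139 FPKM in F and fell (log2 change -0.30, limma, adjusted p = 0.0137), a call absent without FSB replicate 1 or 2; for F_FSB minus FSB it did not pass, but it passed as higher without FSB replicate 3 (0.25), with a filter at 5 FPKM (0.21) and with median ratio or quantile scaling (0.34 with each). DYNC2H1, the retrograde motor of the cilium, averaged 3.14 ± 0.317 FPKM in F_FSB and 4.27 ± 0.603 FPKM in FSB and fell (log2 change -0.34, limma, adjusted p = 0.0378), a call absent without any 1 of F_FSB replicate 1 or 2, FSB replicate 1 or 3 or F replicate 2 or 3. It was also absent with either scaling, with no filter on low values, with only F_FSB and FSB in the fit and with culture number as a block. None of the other cilium genes passed in either comparison.

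Of 15 genes listed as responsive to Hedgehog in some tissue, 8 were tested. Between FSB and F, 3 rose and none fell (3 of the tested genes were lower at an unadjusted p under 0.05). With median ratio scaling 3 were higher and 1 was lower. Between F_FSB and FSB, 2 rose and 3 fell. MYCN, a proliferation factor that Hedgehog induces in mouse cerebellar precursors, was at 1.04, 0.840 and 0.512 FPKM in F_FSB, at 20.1, 17.5 and 15.1 FPKM in FSB and at 1.40, 1.93 and 0.975 FPKM in F. It rose in FSB relative to F (log2 change 2.94, SE 0.18, limma, adjusted p = 5.06e-05) and fell in F_FSB relative to FSB (log2 change -3.37, adjusted p = 2.79e-05). CCND2, cyclin D2, was at 12.4, 18.7 and 4.63 FPKM in F_FSB, at 66.3, 58.5 and 67.5 FPKM in FSB and at 5.62, 1.79 and 6.06 FPKM in F. It rose in FSB (log2 change 3.68, SE 0.49, limma, adjusted p = 0.00103) and fell in F_FSB relative to FSB (log2 change -2.51, adjusted p = 0.00472). BCL2, an inhibitor of cell death, averaged 1.12 ± 0.387 FPKM in F_FSB, 3.92 ± 0.546 FPKM in FSB and 1.55 ± 0.479 FPKM in F (SD, n = 3 each) and passed in the same directions (log2 changes 0.96 and -1.23, limma, adjusted p = 0.00526 and 0.00176). The calls of MYCN, CCND2, BCL2, SCUBE1 and SCUBE3 between FSB and each other group were present under every alternative run.

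The other tested responsive genes were FOXC2, SFRP1, CCND1, FOXL1 and FOXD1. FOXC2, a forkhead factor of mesenchyme, averaged 11.98 ± 2.14 FPKM in F_FSB and 4.08 ± 0.169 FPKM in FSB and rose (log2 change 1.34, limma, adjusted p = 0.00805). SFRP1, a secreted WNT antagonist, averaged 491.1 ± 133 FPKM in F_FSB and 192 ± 48.7 FPKM in FSB and rose (log2 change 1.34, limma, adjusted p = 0.0234), a call absent without F_FSB replicate 1 or 3 or FSB replicate 3. In FSB minus F these genes were at -0.79 and -0.99 and did not pass (limma, adjusted p = 0.0631 and 0.0683), but SFRP1 passed without F replicate 3. FOXC2 passed as lower without F replicate 2, with median ratio scaling (-0.91) and with culture number as a block. CCND1, cyclin D1, was at 76.9, 98.5 and 278 FPKM in F_FSB, at 151, 146 and 79.5 FPKM in FSB and at 88.3, 85.6 and 95.0 FPKM in F and passed in no comparison, and its highest value was again in F_FSB replicate 3. FOXL1 was between 0.789 and 2.50 FPKM and passed in none. FOXD1 averaged 2.47 ± 3.48 FPKM in F_FSB, 0.336 ± 0.143 FPKM in FSB and 3.12 ± 1.40 FPKM in F. It passed the filter through the F libraries, at 1 FPKM or more in 1 library outside that group, and it passed the test in no comparison. It did pass for FSB minus F without F_FSB replicate 3, with only FSB and F in the fit or with a pseudocount of 0.1. FOXF1 reached 1 FPKM in 2 FSB libraries and was not tested. The neural tube targets NKX2-2, NKX6-1 and FOXA2 were listed at 0 in all 9 libraries.

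**Figure D5:**
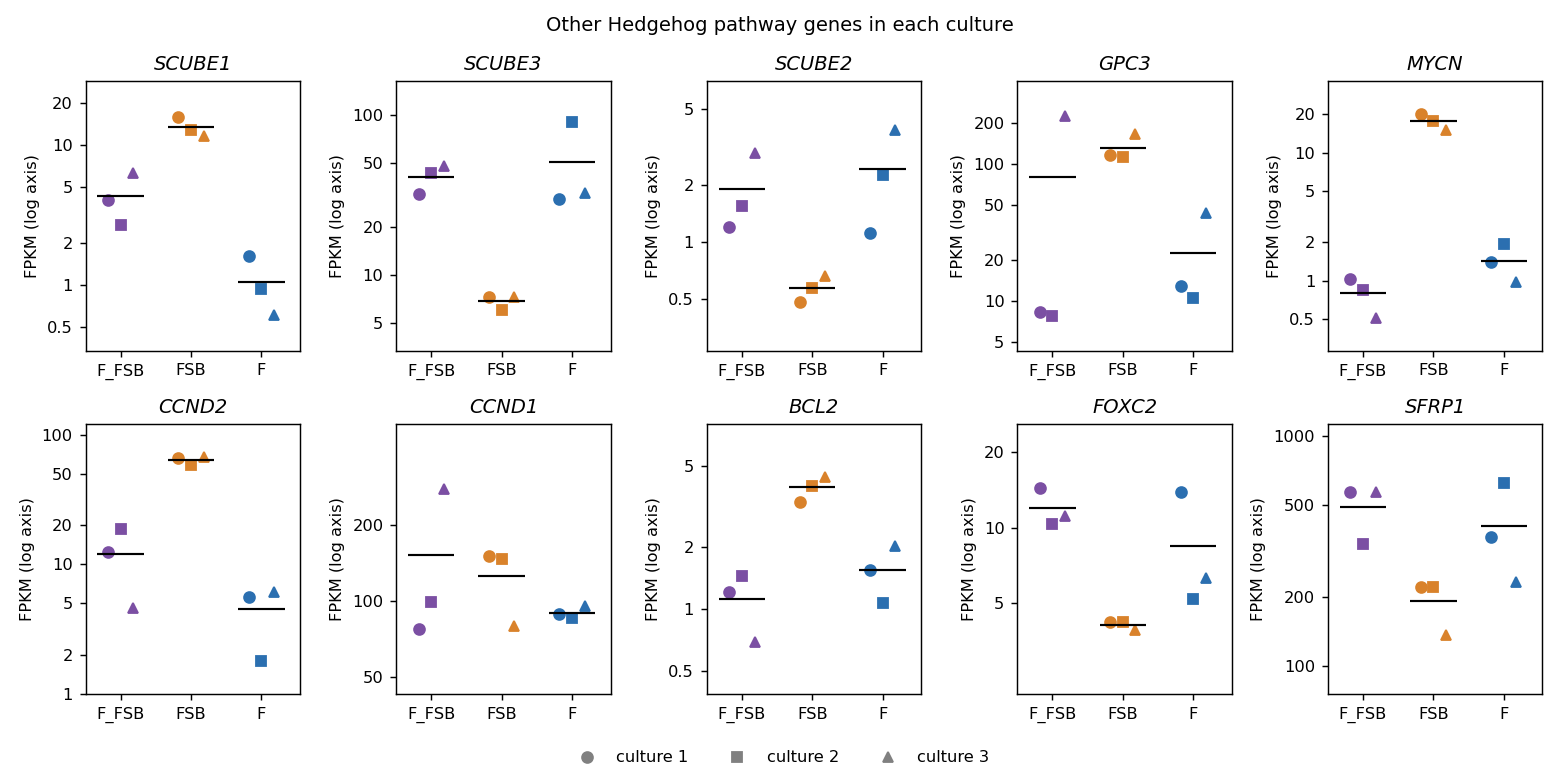
FPKM (log axis, range set for each gene) of 10 other pathway genes in each culture; points are libraries, shapes are culture numbers and lines are arithmetic group means. FSB is highest for SCUBE1, MYCN, CCND2 and BCL2 and lowest for SCUBE3, SCUBE2, FOXC2 and SFRP1. GPC3 and CCND1 show F_FSB replicate 3 apart from its replicates.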

How the data were processed

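The deposited values are FPKM, which the authors made per library with TopHat2 2.0.12 and Cufflinks 2.1.1 on build GRCh37, per the submitters' processing notes; the annotation, the options and any use of strand: not given in the sources used here. Each of the 9 libraries has its own table of 25593 loci with an interval for each value. Starts in the tables count from 0 and are printed 1-based.

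Loci with a status other than OK in any library (95) were left out, and genes at 1 FPKM or more in at least 3 libraries (13216) were fitted as log2(FPKM + 1) in limma 3.58.1 under R 4.3.3, with 1 model for all groups and a trend of variance on mean. Each adjusted p comes from its two-sided test and covers, by the Benjamini-Hochberg method, every gene tested; the threshold was 0.05. The scale understates changes of low genes. The fit was tested on simulated data. The members and lists were chosen with earlier results of these data known. Genes named were the members, all tested genes of the ligand, reception and responsive lists except any not reported here, up to 4 called genes per comparison of the transduction and cilium lists, and the 3 genes most like each co-receptor among those averaging at least 5 FPKM in their highest group, without loci of unnamed or repeated symbols. The design text calls the cultures biological replicates. No library tables were identical. Relative depth came from interval widths of 13735 genes. Alternatives were other pseudocounts, filters and scalings, fits of only 2 groups, without the variance trend or with a culture block, and each library left out. Tables and figures were made in Python 3.11.15 (pandas 2.3.3, matplotlib 3.10.9).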

Additional observations from a re-analysis of the deposited data

How the results depend on the processing

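The tables hold no counts, so GLI1, HHIP and the ligand genes are limited by unknown depth, lowest in F_FSB replicate 2. The median log2 change of all genes was 0.14 for FSB minus F and -0.13 for F_FSB minus FSB with deposited values, against 0.0075 and -0.0028 with median ratio scaling and 0.0297 and -0.0287 with quantile normalization, and the share of calls higher in FSB than in F was 68%, 50.4% and 53.2%. The log2 differences of members kept their direction wherever they were called, and 4 of 357 values moved by more than the spread between replicates, for PTCH1 with a pseudocount of 0.1 and for SMO, at -0.38 for FSB minus F, with quantile normalization. For F_FSB minus FSB, 7 other pathway genes were higher and 6 lower with either scaling, against 4 and 10; the cause was not tested. Leaving out 1 library gave 3629 to 5780 called genes for FSB minus F, against 5536 (lowest without FSB replicate 2), 3817 to 5424 for F_FSB minus FSB, against 5527, 0 to 74 for F_FSB minus F, against 1 (74 without F replicate 1, 3 without F replicate 2, 2 without F_FSB replicate 3, 0 without F_FSB replicate 2, FSB replicate 1 or 2 or F replicate 3), and 3 to 7 other pathway genes lower in FSB than in F, against 6 (lowest without FSB replicate 1 or 2). Without a filter on low values 0 genes were called for F_FSB minus F; the cause was not tested.

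Culture numbers are shared between groups, and the labels do not say whether they pair the cultures. Correlations of deviations across genes were -0.14 to 0.29 for same-numbered cultures and -0.23 to 0.13 for the others. The highest, 0.29, was between replicate 1 of F_FSB and replicate 1 of F. With 3 libraries in each group these values cannot decide whether the cultures were paired. With culture number as a replicate block, 4842 genes were called between FSB and F, 4983 between F_FSB and FSB and 0 between F_FSB and F, and in that order other pathway genes numbered 10 higher and 6 lower, 5 higher and 9 lower, and 0 and 0.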
